A study of Mus musculus with 12 samples.

Results

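The 91 genes described here are nuclear genes of the mitochondrial respiratory chain and ATP synthase, measured in mucosal scrapings of the mouse ileum. They were chosen by name and by measured level. Each is protein-coding, has a symbol that begins with Nduf, Uqcr, Atp5, Sdh followed by a to d, or Cox followed by 4 to 8, and reached 1 TPM in at least 6 of 12 libraries. TPM is a transcript abundance scaled to transcript length and to a fixed library total. Of 55891 genes in the table, 12605 reached that level and were tested. By complex, 45 of the 91 belong to complex I, 7 to complex II, 8 to complex III, 14 to complex IV and 17 to complex V. Ndufa4 is counted with complex IV, where its protein is now placed despite its name, and Cox7a2l, a supercomplex assembly factor, is counted there too.

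The respiratory chain passes electrons from NADH (complex I) and succinate (complex II) through coenzyme Q, complex III and cytochrome c to oxygen at complex IV, and complexes I, III and IV pump protons that drive ATP synthesis at complex V. Complexes I, III, IV and V combine subunits from the nuclear genome with a few from mitochondrial DNA, whereas complex II is wholly nuclear. In the intestinal epithelium, oxidative phosphorylation is a major energy source of absorptive cells. Several complex IV subunits exist as paired isoforms, one made in most tissues and one made mainly in heart and skeletal muscle or in testis.

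The libraries came from 12 mice, 1 library each. Of these, 6 mice were labelled ERBB3-dIE and 6 Erbb3-FF, and the study asks about the receptor tyrosine kinase ErbB3 and the intestinal barrier. Litter B held 3 ERBB3-dIE and 2 Erbb3-FF mice, and litter A held 3 ERBB3-dIE and 4 Erbb3-FF mice. All were sampled at baseline, and no source used here gives age, strain, sex or the nature of the Erbb3 alteration. Erbb3 itself was at 104 to 206 TPM (median 138) in ERBB3-dIE mice and at 87.3 to 151 TPM (median 115) in Erbb3-FF mice, a log2 difference of 0.16 (SE 0.11, limma adjusted p = 0.402). A gene-level value counts transcripts that lack only some exons, so it does not check the labels.

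Depth per library is unknown, since TPM do not keep it, and 12344 to 13364 genes stood at 1 TPM or more. The share of TPM from mitochondrial DNA was 7.94% to 22.1%. Ribosomal sequence took 10.2% and 10.8% in Erbb3-FF mice 5 and 6, against at most 1.62% in the other 10 libraries. The tissue label was met by markers of the ileal epithelium: 17 of 18 enterocyte, 14 of 14 goblet and 10 of 10 Paneth cell markers reached 1 TPM in at least 6 libraries. Genes of the epithelium also differed between the genotypes. Of 17 tested enterocyte markers 7 were lower in ERBB3-dIE mice and 0 higher (median log2 difference −0.84), and of 14 goblet markers 10 were higher and 0 lower (median 0.73).

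Most of these genes were among the more abundant transcripts of the mucosa. Their mean TPM lay at the 94.7th percentile of the tested genes by the median, with a range from the 19.6th to the 99.35th. Together they made up 2.27% to 3.00% of the TPM in ERBB3-dIE libraries (median 2.53%) and 2.01% to 2.83% in Erbb3-FF libraries (median 2.46%). Subunit genes and assembly factor genes sat at different levels. The 8 assembly factor genes of complex I had mean TPM from 6.88 to 30.2, below each of its subunit genes, the lowest of which was Ndufb4 at 44.9. The level of Ndufb4 is uncertain, because its open reading frame is identical in a copy listed at 69.2 to 136 TPM.

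**Figure D1:**
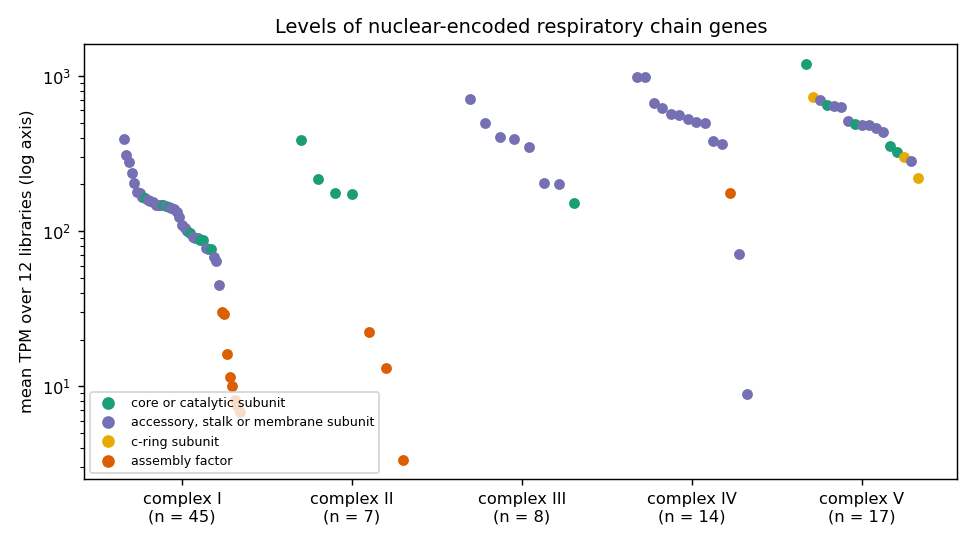
Mean TPM over the 12 libraries (vertical log axis) of each of the 91 genes, grouped by complex along the horizontal axis and coloured by role. The assembly factors of complexes I and II lie between 3.37 and 30.2 TPM, below the subunits of the same complex.

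Within complex I, the core subunits that carry out electron transfer ranged from 76.6 TPM for Ndufs1 to 164 TPM for Ndufs3. The accessory subunits, which surround and stabilise that core, ranged from 44.9 TPM for Ndufb4, whose level is uncertain, to 394 TPM for Ndufa3. Thus, among the nuclear genes of the complex, the most abundant transcripts were not those of core subunits. Core subunits from mitochondrial DNA are outside this comparison. One of them, mt-Nd5, averaged 2030 TPM in ERBB3-dIE and 2073 TPM in Erbb3-FF mice. Among the assembly factors, Ndufaf8 was highest (30.2 TPM) and Ndufaf5, an enzyme that modifies a core subunit, was lowest (6.88 TPM).

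Complex II had 4 subunit genes. Sdhc, a membrane anchor, averaged 385 TPM, and Sdhd, the other anchor, 215 TPM. The flavoprotein gene Sdha and the iron-sulfur gene Sdhb stood at 176 and 173 TPM. The assembly factor genes Sdhaf2, Sdhaf4 and Sdhaf1 were at 22.4, 13.03 and 3.37 TPM. Sdhaf1 was the member nearest to the level bound. Just outside it was Sdhaf3, with a mean of 0.805 TPM and 1 TPM or more in 2 libraries.

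In complex III the hinge protein gene Uqcrh was highest (710 TPM) and Uqcrfs1, the Rieske iron-sulfur protein gene, lowest (153 TPM). In complex IV, Cox7b and Cox4i1 were at 985 and 983 TPM, and the other isoforms made in most tissues, Cox5a, Cox5b, Cox6a1, Cox6b1, Cox6c, Cox7a2, Cox7c and Cox8a, were between 379 and 668 TPM. In complex V the gene of the catalytic beta subunit, Atp5b, was the highest of all 91 (1201 TPM). The 3 genes Atp5g1, Atp5g2 and Atp5g3 encode the same mature c-ring protein, and Atp5g3 carried most of their transcript (738 TPM, against 299 TPM for Atp5g1 and 221 TPM for Atp5g2).

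Of the tissue-restricted isoforms, Cox7a1, the form of heart and skeletal muscle, averaged 71.7 TPM and Cox6b2, known from testis, 8.90 TPM. The muscle forms Cox8b and Cox6a2 averaged 0.355 and 0.0414 TPM, the lung form Cox4i2 averaged 0.155 TPM, Ndufa4l2, known as a hypoxia-induced relative of Ndufa4, averaged 0.0293 TPM, and Cox7b2 and Cox8c were listed at 0. These 6 genes, with Sdhaf3, Cox5b-ps, Ndufb11b and a second identifier of Atp5o, are the 10 of 101 protein-coding genes with a matching name that did not reach 1 TPM in 6 libraries. A further 18 matching names belonged to pseudogenes.

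Variation over the 12 libraries was small for most members. The coefficient of variation had a median of 14.5% over the 91 genes, beside 24.0% over all tested genes, and lay above 30% for 7 genes. Those 7 were Cox6b2 (71.3%), Ndufaf6 (64.9%), Cox7a1 (51.8%), Ndufa10 (40.1%), Ndufs5 (39.6%), Ndufa12 (33.8%) and Ndufaf4 (30.2%). Ndufaf6, a complex I assembly factor, was at 22.2 TPM in ERBB3-dIE mouse 1 and between 4.14 and 8.69 TPM in the other 11 libraries. Ndufa10 ran from 93.1 to 338 TPM in ERBB3-dIE mice and from 94.3 to 249 TPM in Erbb3-FF mice.

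Summed levels of the complexes went up and down together from library to library. Complex I summed to 5019 to 6246 TPM (median 5594) in ERBB3-dIE mice and to 4380 to 6019 TPM (median 5193) in Erbb3-FF mice. The genotypes overlapped, and the lowest Erbb3-FF sums came from mice 5 and 6, the libraries rich in ribosomal sequence. Complex IV summed to 6194 to 8372 TPM (median 7089) in ERBB3-dIE mice and to 5489 to 7711 TPM (median 6708) in Erbb3-FF mice. Complex V summed to 8130 to 10971 TPM (median 8818) in ERBB3-dIE mice and to 7054 to 10126 TPM (median 8631) in Erbb3-FF mice. Each of these ranges overlapped between the genotypes. In ERBB3-dIE mouse 1, 40 of the 91 genes had their highest value of all libraries, and in ERBB3-dIE mouse 3 it was 26. In Erbb3-FF mouse 5, 43 genes had their lowest value, in Erbb3-FF mouse 6 it was 18, and in ERBB3-dIE mouse 2 it was 14.

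**Figure D2:**
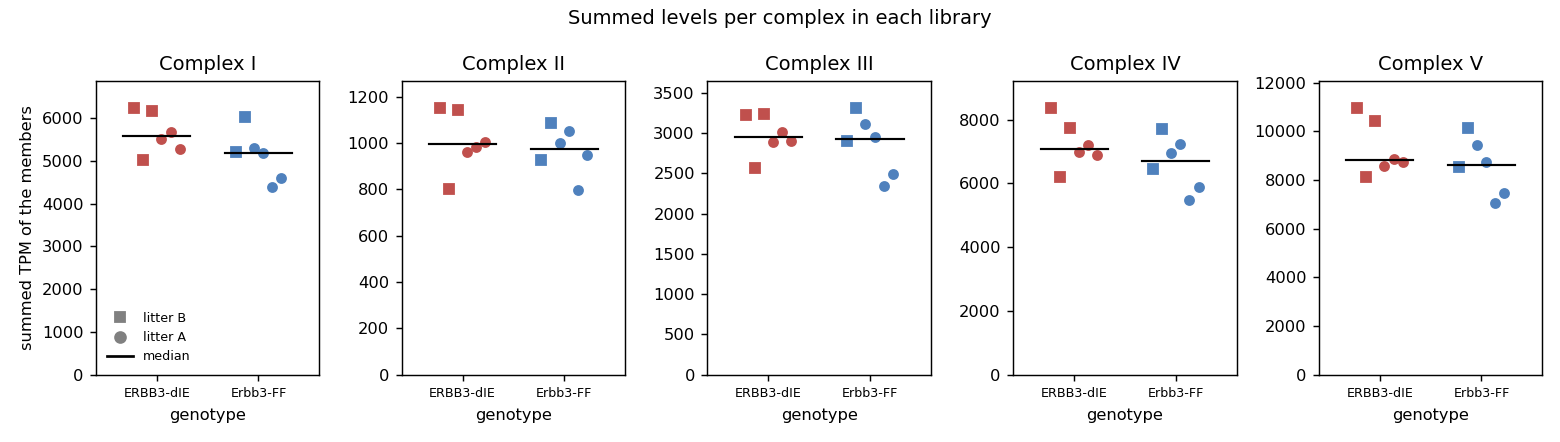
Summed TPM of the members of each complex in each library (vertical axis), with ERBB3-dIE libraries left of Erbb3-FF libraries. Squares are litter B, circles litter A and lines medians. The 2 genotypes overlap in each panel, and Erbb3-FF mice 5 and 6 are the 2 lowest points of that genotype in the panels of complexes I, III, IV and V.

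Members of other complexes followed these sums closely. Over the 12 libraries, the member of another complex with the highest Pearson correlation of log2 values to the complex I sum was Atp5h (0.986), a stalk subunit gene of complex V. For complex II it was Atp5a1 (0.921), for complex III Cox6c (0.951), for complex IV Ndufb9 (0.969) and for complex V again Ndufb9 (0.965). All points share a library and thus its scaling and depth, so these values describe the 12 libraries only. The 13 mitochondrially encoded protein genes did not go the same way in the library where the nuclear genes were highest: they summed to 77276 TPM in ERBB3-dIE mouse 1, the lowest of all libraries, and to 219657 TPM in ERBB3-dIE mouse 5, the highest. TPM have a fixed total, so a small mitochondrial sum by itself raises the values of all other genes. The nuclear and mitochondrial sums are therefore not independent.

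Promoters of the members were searched for 3 motifs, as a description. RefSeq (GRCm38.p6) gave 83 promoters for 78 of the 91 genes, each with 250 bases before and 50 after the start. Both strands were searched for GCATGCGC, a core motif of nuclear respiratory factor 1, for CCGGAAG, an ETS motif bound by GABP, and for AAGATGGC, a YY1 motif. GCATGCGC was found in 14.5% of the members' promoters and in 2.71% of all 32851 promoters of the same length. CCGGAAG was found in 25.3% and 8.86%, and AAGATGGC in 13.3% and 2.75%. At least 1 of the 3 was found in 44.6% of the members' promoters, against 13.3% of all promoters. A match describes letters and does not show binding. The set of all promoters was not matched to the members in transcript level or base composition. Whether the motifs bear on the shared variation of the members was not tested.

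Promoters were ranked by matches before the start, counted on each strand, with ties settled by mean TPM. Members on 1 chromosome and members with another name in RefSeq were left out of this ranking. The promoter ranked first was that of Cox6a1, a complex IV subunit of most tissues. Its sequence is shown with the promoters of 2 isoform pairs of complex IV whose ratios differed between the genotypes, Cox7a1 with Cox7a2 and Cox6b2 with Cox6b1. Each line gives the 250 bases before the start, 5′ to 3′ on the gene's strand, and capitals mark any of the 3 motifs. The positions on GRCm38.p6 are chr5:115348959-115349208, minus strand for Cox6a1, chr7:30183921-30184170, plus strand for Cox7a1, chr9:79759854-79760103, minus strand for Cox7a2, chr7:4753095-4753344, minus strand for Cox6b2 and chr7:30626115-30626364, minus strand for Cox6b1.
Cox6a1: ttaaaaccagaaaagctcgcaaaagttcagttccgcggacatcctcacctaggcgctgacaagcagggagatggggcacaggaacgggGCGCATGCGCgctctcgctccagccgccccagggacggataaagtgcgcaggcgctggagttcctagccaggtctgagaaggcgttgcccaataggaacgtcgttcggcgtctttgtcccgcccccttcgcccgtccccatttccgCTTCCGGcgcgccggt
Cox7a1: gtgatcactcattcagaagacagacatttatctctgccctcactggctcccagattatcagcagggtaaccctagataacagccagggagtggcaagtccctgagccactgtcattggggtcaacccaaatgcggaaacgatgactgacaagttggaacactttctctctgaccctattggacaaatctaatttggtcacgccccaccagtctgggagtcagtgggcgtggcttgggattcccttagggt
Cox7a2: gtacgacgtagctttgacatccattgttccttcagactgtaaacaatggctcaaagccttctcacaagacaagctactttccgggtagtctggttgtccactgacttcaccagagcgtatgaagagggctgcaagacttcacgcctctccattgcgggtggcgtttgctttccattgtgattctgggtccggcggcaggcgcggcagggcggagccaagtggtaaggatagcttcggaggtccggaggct
Cox6b2: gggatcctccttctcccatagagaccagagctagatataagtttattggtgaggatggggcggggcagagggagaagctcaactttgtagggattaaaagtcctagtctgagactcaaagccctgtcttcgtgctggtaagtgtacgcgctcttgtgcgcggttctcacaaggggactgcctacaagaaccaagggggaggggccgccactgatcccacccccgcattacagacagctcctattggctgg
Cox6b1: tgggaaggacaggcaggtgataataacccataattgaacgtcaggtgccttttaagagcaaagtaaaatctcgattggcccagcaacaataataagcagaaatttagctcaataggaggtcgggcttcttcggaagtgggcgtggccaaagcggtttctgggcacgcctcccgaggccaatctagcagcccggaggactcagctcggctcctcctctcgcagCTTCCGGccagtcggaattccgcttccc
Cox6a1 held GCATGCGC on both strands at 1 overlapping place and 1 ETS motif, and Cox6b1 held 1 ETS motif. In Cox7a1, Cox7a2 and Cox6b2 none of these letters was found in this window.

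The first comparison was between the genotypes, in a limma fit of log2(TPM + 0.5) over the whole table with litter as a covariate. None of the 91 genes passed the adjusted p threshold of 0.05, where 5.36% of all tested genes did (1.66% higher and 3.7% lower in ERBB3-dIE mice). At an unadjusted p under 0.05 there were 10 members, 8 higher and 2 lower in ERBB3-dIE mice, beside 21.8% of all tested genes. No member had ranges that did not overlap between the genotypes, as 2.44% of all tested genes had. In such scrapings, fewer cells of a type and less RNA per cell cannot be told apart.

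Small positive differences were frequent all the same. Of the 91 genes, 79 had a positive and 12 a negative log2 difference, while 49.9% of all tested genes were positive. The median was 0.084 over the members and −0.00066 over all tested genes. By complex, 43 of 45 genes were positive in complex I (median 0.12), 6 of 7 in complex II (0.041), 4 of 8 in complex III (0.026), 11 of 14 in complex IV (0.096) and 15 of 17 in complex V (0.11). The members vary together over libraries and are not independent, so these counts carry no test. Without Erbb3-FF mice 5 and 6, the libraries rich in ribosomal sequence, the median was 0.023 and 54 of 91 were positive. All tested genes then had a median of −0.031, with 45.8% positive. Within litter B alone the members' median was 0.038 beside −0.10 for all tested genes, and within litter A alone it was 0.15 beside 0.077.

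**Figure D3:**
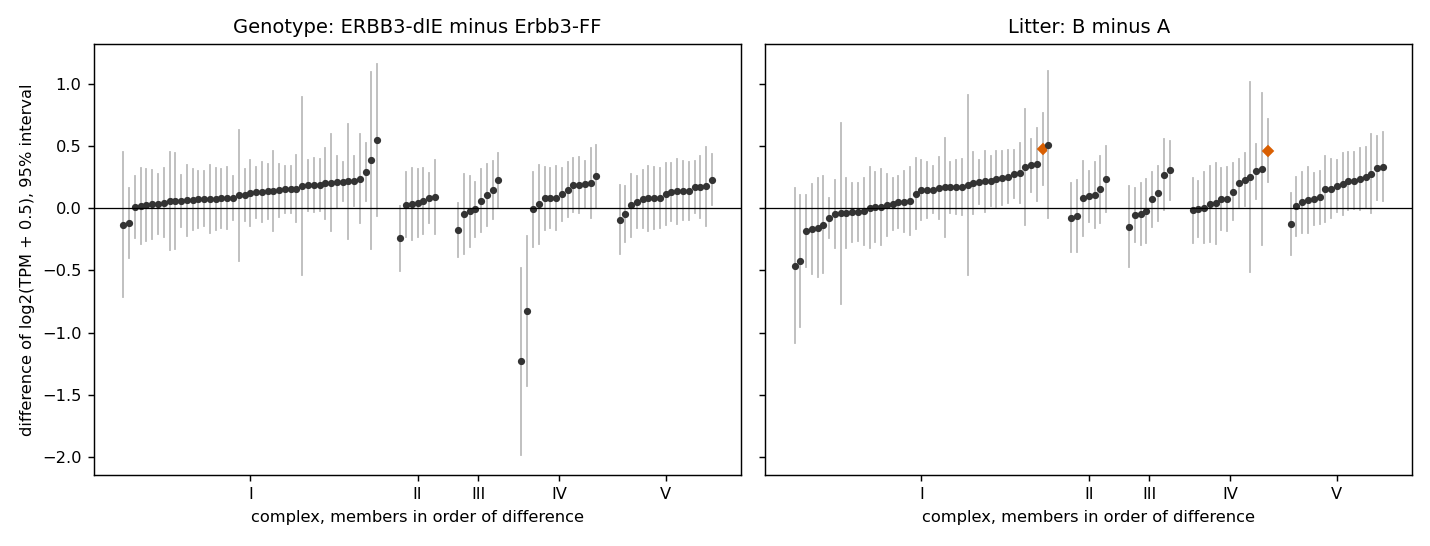
Difference of log2(TPM + 0.5) with its 95% interval (vertical axis) for each of the 91 genes, in order of size within each complex (horizontal axis). The left panel shows ERBB3-dIE minus Erbb3-FF and the right panel litter B minus litter A. Orange diamonds passed the adjusted p threshold, 0 genes on the left and 2 on the right, and the 2 low points of complex IV on the left are Cox6b2 and Cox7a1.

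In complexes I, III and V the member with the smallest p-value was on the positive side. Ndufa5, a subunit of the matrix arm of complex I, was at 163 to 203 TPM (median 173) in ERBB3-dIE mice and at 143 to 164 TPM (median 156) in Erbb3-FF mice. Only the ends of these ranges touched, and the log2 difference of 0.21 (SE 0.073, limma adjusted p = 0.112) did not pass. Atp5g2, a c-ring gene, was at 190 to 262 TPM (median 249) in ERBB3-dIE mice and at 189 to 224 TPM (median 195) in Erbb3-FF mice, a difference of 0.23 (SE 0.094, limma adjusted p = 0.180). ERBB3-dIE mouse 2 was the lowest of its genotype, and without it the adjusted p was 0.028. Uqcr10, a small subunit of complex III, was at 345 to 495 TPM (median 444) in ERBB3-dIE mice and at 332 to 409 TPM (median 376) in Erbb3-FF mice, with a difference of 0.23 (SE 0.098, limma adjusted p = 0.205). The 95% intervals of the 3 differences reached up to 0.37, 0.43 and 0.44. For the core subunit genes Ndufs3 and Ndufs7 the differences were 0.22 and 0.21, and for Ndufc2 0.29 (limma adjusted p = 0.142). For Ndufa4 the difference was 0.19 and for Cox6b1 0.26, and none of these genes passed. Sdhaf2, the flavin insertion factor of complex II, was at 16.7 to 24.4 TPM (median 21.0) in ERBB3-dIE mice and at 20.4 to 28.7 TPM (median 24.8) in Erbb3-FF mice, with a difference of −0.24 (SE 0.12, limma adjusted p = 0.268).

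The 2 genes with an unadjusted p under 0.05 on the negative side were the tissue-restricted isoforms of complex IV. Cox7a1 (ENSMUSG00000074218) measured 76.5, 61.9, 39.1, 40.8, 53.5 and 36.5 TPM in ERBB3-dIE mice 1 to 6, and 102, 86.7, 170, 80.6, 49.3 and 63.8 TPM in Erbb3-FF mice 1 to 6. Erbb3-FF mouse 3 was far above the rest, and Erbb3-FF mice 5 and 6 lay within the ERBB3-dIE range. The means were 51.4 ± 15.7 TPM in ERBB3-dIE and 92.1 ± 42.4 TPM in Erbb3-FF mice (SD, n = 6 each). This gave a log2 difference of −0.83 (SE 0.28, limma adjusted p = 0.105), which did not pass.

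Cox6b2 (ENSMUSG00000051811) measured 2.56, 6.82, 7.55, 4.70, 4.03 and 4.30 TPM in ERBB3-dIE mice 1 to 6, and 21.8, 7.75, 21.4, 9.55, 6.04 and 10.4 TPM in Erbb3-FF mice 1 to 6. Erbb3-FF mice 1 and 3 stood far above the others, and Erbb3-FF mouse 5 lay within the ERBB3-dIE range. The means were 4.99 ± 1.86 TPM in ERBB3-dIE and 12.8 ± 6.96 TPM in Erbb3-FF mice (SD, n = 6 each). The log2 difference of −1.23 (SE 0.34, limma adjusted p = 0.062) was the largest of the 91 in size and did not pass. Scaled without ribosomal sequence it was −1.27 and passed (limma adjusted p = 0.0428). Without Erbb3-FF mouse 5 it was −1.38 and also passed (limma adjusted p = 0.0391).

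The authors' deposited table gives adjusted p-values under 0.05 for 5 of the 91 genes. In the authors' deposited table Cox6b2 has a log2 fold change of −1.31 (adjusted p = 0.00263) and Cox7a1 one of −0.78 (adjusted p = 0.0199). In the same authors' deposited table Atp5g2 has 0.25 (adjusted p = 0.0143), Ndufa4 0.23 (adjusted p = 0.0239) and Ndufs3 0.26 (adjusted p = 0.0481). The authors' deposited table calls 5.07% of its 15490 tested genes higher in ERBB3-dIE mice and 7.51% lower, and 3 and 2 of the 91 members.

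Ratios between isoforms do not depend on the scaling of a library. Of 9 isoform ratios set, 5 had both genes among the members, and each was compared by an exact 2-sided permutation test over the 924 possible assignments, with Benjamini-Hochberg adjustment over the 5. The pairs were set with earlier results of these data known. The ratio of Cox7a1 to Cox7a2, the form of most tissues, was 0.0899 to 0.168 (median 0.117) in ERBB3-dIE mice and 0.170 to 0.456 (median 0.209) in Erbb3-FF mice. The genotypes did not overlap, although Erbb3-FF mouse 5 and ERBB3-dIE mouse 2 were next to each other. The log2 difference of the ratio was −0.99 (SD 0.38 and 0.53, n = 6 each, exact permutation p = 0.002165, the smallest that 6 against 6 can give, adjusted p = 0.0108). It was −0.90 in litter B and −1.11 in litter A, and the exact permutation p within litters was 0.00286.

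The ratio of Cox6b2 to Cox6b1 was 0.00277 to 0.0108 (median 0.0066) in ERBB3-dIE mice and 0.0105 to 0.0411 (median 0.0159) in Erbb3-FF mice. The ranges overlapped by 1 library on each side. The log2 difference was −1.54 (SD 0.68 and 0.82, n = 6 each, exact permutation p = 0.00433, adjusted p = 0.0108). It was −1.80 in litter B and −1.42 in litter A, with an exact permutation p of 0.00571 within litters. With any 1 library left out, the difference lay between −1.10 and −0.81 for Cox7a1 over Cox7a2 (largest exact permutation p 0.00866) and between −1.71 and −1.30 for Cox6b2 over Cox6b1 (largest exact permutation p 0.0108).

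The other 3 ratios did not pass. The ratio of Cox7a2l to Cox7a2 was 0.3502 to 0.523 in ERBB3-dIE mice and 0.365 to 0.650 in Erbb3-FF mice (log2 difference −0.055, exact permutation p = 0.723). For the c-ring genes, Atp5g1 over Atp5g3 was 0.332 to 0.478 in ERBB3-dIE mice and 0.322 to 0.487 in Erbb3-FF mice (0.033, exact permutation p = 0.814). Atp5g2 over Atp5g3 was 0.274 to 0.345 in ERBB3-dIE mice and 0.234 to 0.3285 in Erbb3-FF mice (0.13, exact permutation p = 0.236).

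**Figure D4:**
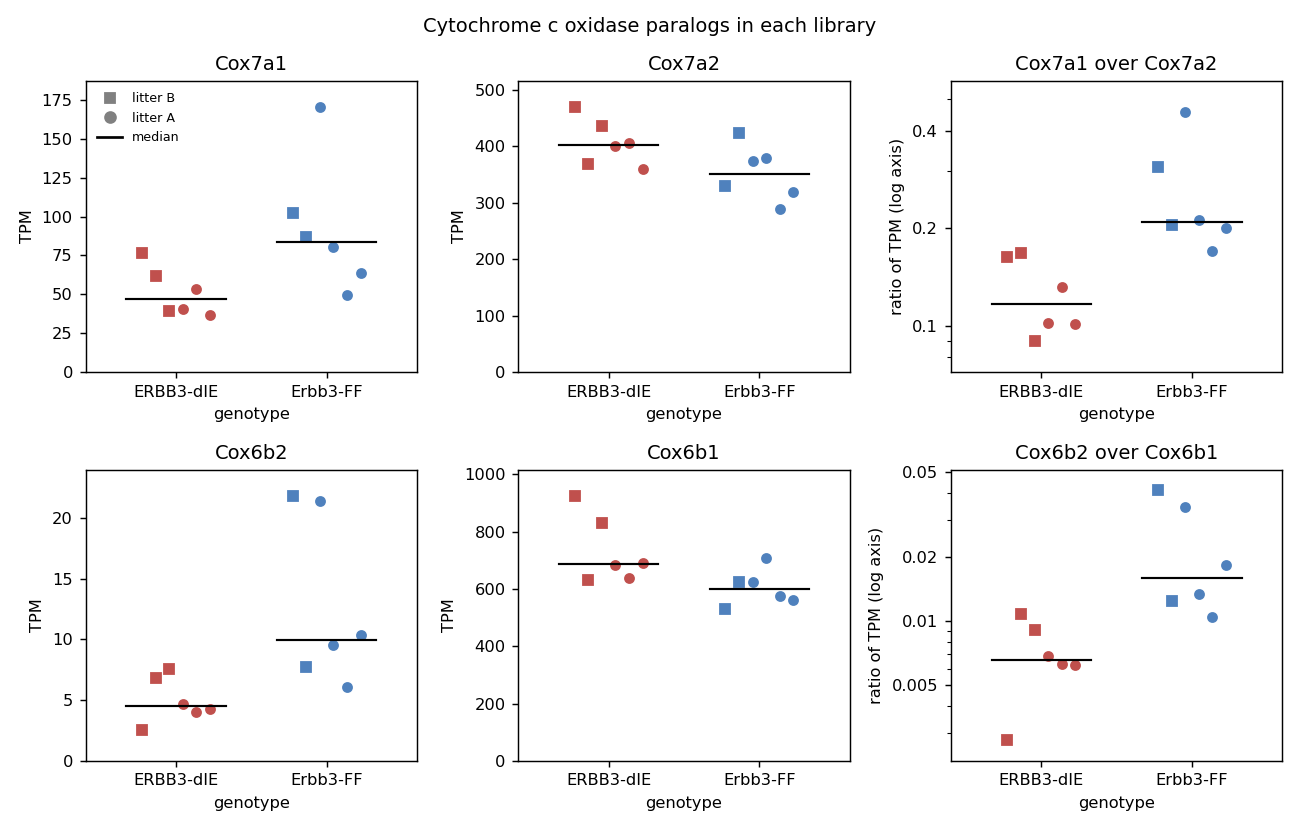
TPM of Cox7a1, Cox7a2, Cox6b2 and Cox6b1 in each library (left and middle columns, linear axes from 0) and the ratio within each pair (right column, log axis), with ERBB3-dIE left of Erbb3-FF. Squares are litter B, circles litter A and lines medians. All ERBB3-dIE ratios of Cox7a1 to Cox7a2 are at or below 0.168 and all Erbb3-FF ratios are at or above 0.170.

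Markers of several cell types differed between the libraries, and not all in the direction of these isoforms. The 18 enterocyte markers summed to 6101 to 22227 TPM in ERBB3-dIE libraries and to 12476 to 29837 TPM in Erbb3-FF libraries, with the highest sum in Erbb3-FF mouse 3, where Cox7a1 was also highest. ERBB3-dIE mouse 1 had the highest enterocyte sum of its genotype, with the highest Cox7a1 and the lowest Cox6b2 of that genotype. The part of enterocyte markers in the result was not tested. Smooth muscle markers summed to 51.4 to 225 TPM in ERBB3-dIE libraries and to 71.9 to 125 TPM in Erbb3-FF libraries, and the highest sums, in ERBB3-dIE mice 4 and 5, stood beside Cox7a1 values of 40.8 and 53.5 TPM. Without those 2 libraries the log2 difference of the Cox7a1 ratio was −0.95 (exact permutation p = 0.0143) and that of the Cox6b2 ratio −1.56 (exact permutation p = 0.019). Mylk had the highest median TPM of the 10 smooth muscle markers and was lower in ERBB3-dIE mice, the direction of Cox7a1 and Cox6b2. Its means were 48.2 TPM in ERBB3-dIE and 72.1 TPM in Erbb3-FF mice (log2 difference −0.56, SE 0.14, limma adjusted p = 0.0398). The other 7 tested markers had positive differences, and 0 passed. The part of Mylk alone in the result was not tested. Of 10 striated muscle markers, 8 never reached 1 TPM, with Myh1, Myh2 and Myh4 at 0 in all libraries. Acta1, the only one tested, was higher in ERBB3-dIE mice (log2 difference 1.39, SE 0.36, limma adjusted p = 0.0472). Its litter difference was larger, with means of 192 TPM in litter B and 19.1 TPM in litter A (2.86, SE 0.36, limma adjusted p = 0.0111).

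Markers of B cells and of fat differed between the libraries as well. The B cell sum was entered as a covariate in a fit, and the part of the fat markers in the result was not tested. The 10 B cell markers summed to 6.57 to 19.5 TPM in ERBB3-dIE libraries, and to 346, 157 and 131 TPM in Erbb3-FF mice 1, 2 and 3 but 5.48 to 9.14 TPM in the other 3 Erbb3-FF libraries. Both Cox7a1 and Cox6b2 were highest in Erbb3-FF mice 1 and 3. With the B cell sum as a covariate, the log2 differences were −0.61 for Cox7a1 (limma adjusted p = 0.426) and −0.78 for Cox6b2 (limma adjusted p = 0.339). That fit called 67 of the 12605 tested genes between the genotypes, against 676 without the covariate. The B cell sum was high only in Erbb3-FF mice, so this fit cannot tell it apart from genotype. The 7 markers of adipocytes and brown fat, in which Cox7a1 is also known, summed to 10.1 to 26.7 TPM in ERBB3-dIE libraries and to 24.3 to 90.6 TPM in Erbb3-FF libraries. Of these 7, Cidec, a lipid droplet gene, was lower in ERBB3-dIE mice (−1.41, SE 0.25, limma adjusted p = 0.0119), Fabp4 did not pass and the other 5 did not reach 1 TPM in 6 libraries. Ucp1, the defining gene of brown fat, was listed at 0 in all 12 libraries. T cell markers went the other way: 4 of 12 were higher in ERBB3-dIE mice and 0 lower (median log2 difference 0.85), and their sums were 198 to 714 TPM in ERBB3-dIE libraries and 122 to 225 TPM in Erbb3-FF libraries. Their part in the result was not tested either.

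The second comparison was between the litters. Of the 91 genes, 2 were higher in litter B (7.16% of all tested genes were) and 0 were lower (1.4% of all tested genes were). At an unadjusted p under 0.05 there were 18 members, all higher in litter B, beside 29.4% of all tested genes in either direction. Positive differences were held by 69 of 91 genes, with a median of 0.12 beside 0.046 over all tested genes. Scaled without ribosomal sequence and mitochondrially encoded genes, the median was −0.012 with 45 of 91 positive, and that of all tested genes was −0.076, so the sign of this median rests on the scaling. That scaling also changed the calls over all genes to 421 higher and 288 lower, against 902 higher and 176 lower in the TPM as deposited. The 13 mitochondrially encoded protein genes had a median litter difference of −0.51.

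Cox7a2l (ENSMUSG00000024248), which helps complexes III and IV to join in supercomplexes, was at 178 to 245 TPM (median 211) in the 5 libraries of litter B and at 123 to 177 TPM (median 140) in the 7 libraries of litter A. Its litters did not overlap, as was so for 1 of the 91 genes and for 2.15% of all tested genes. Litter B was higher by 0.46 on the log2 scale (SE 0.12, limma adjusted p = 0.0369). Ndufa6 (ENSMUSG00000022450), an accessory subunit of the LYR motif family, was at 335 to 424 TPM (median 363) in litter B and at 197 to 361 TPM (median 255) in litter A. Erbb3-FF mouse 3, of litter A, lay within the litter B range, and the difference was 0.48 (SE 0.13, limma adjusted p = 0.0479). Both calls were lost when single libraries were left out: Cox7a2l passed in 3 of the 12 such fits and Ndufa6 in 1. Over all tested genes, 0.77% to 15.7% were higher in litter B in these fits, against 7.16% with all libraries. Without Erbb3-FF mouse 3, 12 members (13.2%) were higher and 1 lower in litter B, beside 15.7% and 8.54% of all tested genes, so the share of members was not above that of all genes.

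Whether the genotype difference depended on the litter was tested with an interaction term. None of the 91 genes and 0% of all tested genes passed, and 0 members had an unadjusted p under 0.05, beside 9.31% of all tested genes. The smallest unadjusted p among the members was 0.112, for Ndufa1. Litter B held only 2 Erbb3-FF mice, which limits the precision of this comparison.

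Members of several complexes share sequence with pseudogenes or other genes, which bears on how reads were assigned. In transcripts of GENCODE vM21 (GRCm38), 31 of 90 members had at least 1 stretch of 75 bases, the read length, that was also found in another gene. The share was highest for Atp5l, a membrane subunit gene of complex V (63.4%, with 9 other genes), followed by Atp5g2 (35.8%), Ndufb4 (35.2%), Uqcrb (29.1%), Atp5h (27.1%) and Ndufs3 (27.1%). Copies with the names of complex I genes were listed at high TPM, and those are described here. For Ndufa12, an accessory subunit gene on chromosome 10, the share was 22.0% of its stretches, all shared with Ndufa12-ps on chromosome 5. For Ndufs5, an accessory subunit gene on chromosome 4, it was 15.7%, all shared with Ndufs5-ps on chromosome 16. The aligned open reading frames differed at 2 of 399 bases between Ndufa12 and Ndufa12-ps and at 2 of 318 bases between Ndufs5 and Ndufs5-ps. A stretch of 75 bases of each pair is shown to let the closeness be seen, with differing bases in capitals.
Ndufa12: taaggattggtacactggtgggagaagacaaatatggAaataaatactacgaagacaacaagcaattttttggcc
Ndufa12-ps: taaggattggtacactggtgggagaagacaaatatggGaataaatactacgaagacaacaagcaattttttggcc
Ndufs5: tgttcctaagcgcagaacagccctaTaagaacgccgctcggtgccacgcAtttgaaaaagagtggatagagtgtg
Ndufs5-ps: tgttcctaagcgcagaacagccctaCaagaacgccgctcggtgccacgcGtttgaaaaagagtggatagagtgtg
A read over such a stretch can be placed by 1 or 2 bases at most.

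The levels of Ndufa12 and its copy varied against each other. Ndufa12 measured 78.0, 106, 88.4, 151, 152 and 137.5 TPM in ERBB3-dIE mice 1 to 6, and 64.8, 88.0, 35.7, 127, 109.8 and 112.5 TPM in Erbb3-FF mice 1 to 6. Ndufa12-ps reached 110 TPM in ERBB3-dIE mouse 1 and 87.9 TPM in ERBB3-dIE mouse 3, with no more than 7.39 TPM in the other 4. Among Erbb3-FF mice it reached 74.0, 61.7 and 142 TPM in mice 1, 2 and 3, with no more than 13.3 TPM in the other 3. Libraries with much of the copy were those with little of the gene. Added together, their coefficient of variation was 17.8%, against 33.8% for Ndufa12 alone, and the log2 difference between genotypes was 0.11 (limma adjusted p = 0.706), against 0.55 (limma adjusted p = 0.286) for the gene alone.

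Ndufs5-ps was more abundant than Ndufs5 in most libraries, at 241 to 434 TPM in ERBB3-dIE mice and at 26.3 to 465 TPM in Erbb3-FF mice. Erbb3-FF mice 1 and 3 stood apart, with 28.5 and 26.3 TPM of Ndufs5-ps and 120 and 102 TPM of Ndufs5, the 2 highest values of that gene. Their summed levels still varied, with a coefficient of variation of 35.3%, so adding the copy did not level the libraries here. For Ndufb4, an accessory subunit gene, the open reading frame of 387 bases was identical in the copy Ndufb4c, which was listed at 69.2 to 136 TPM over the 12 libraries, against 21.1 to 60.5 TPM for Ndufb4. The split between these 2 is therefore uncertain. None of the stretches of Cox7a1, Cox6b2, Cox7a2, Cox6b1 and Ndufa6 was found in another gene, and 13.4% of those of Cox7a2l were. Atp5g2 and Ndufs3, called in the authors' deposited table, shared more of their stretches than Ndufa12 did, and their values are uncertain to that extent.

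**Figure D5:**
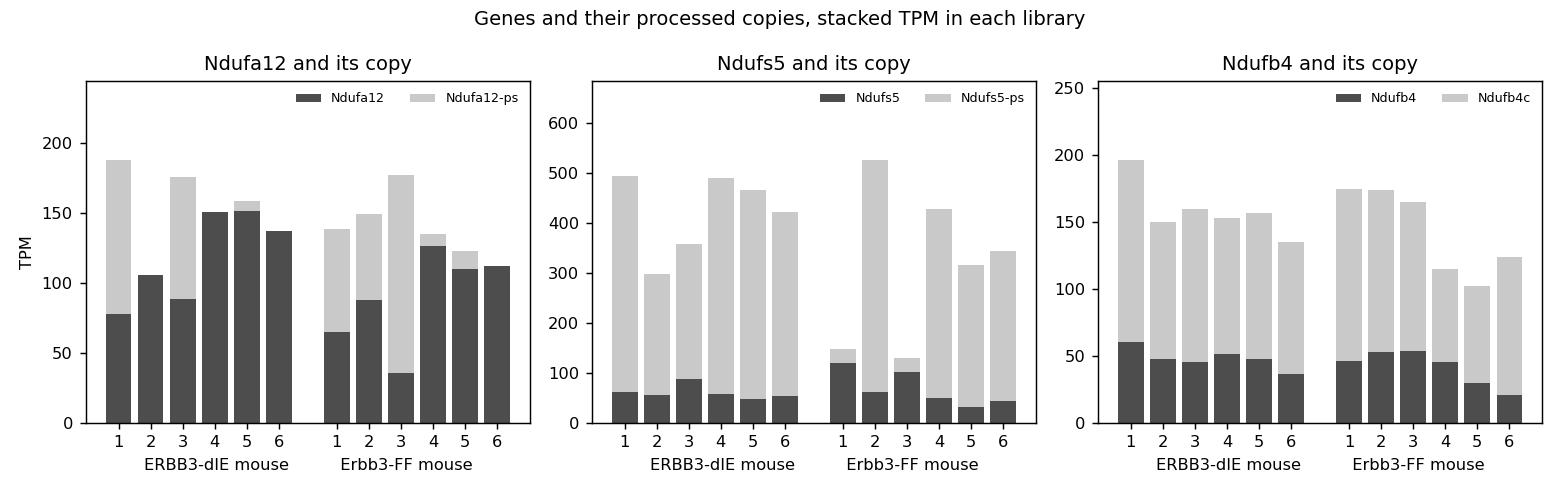
Stacked TPM (vertical axis, from 0) of Ndufa12, Ndufs5 and Ndufb4 (dark) and of their processed copies (light) in each library, with ERBB3-dIE mice 1 to 6 left of Erbb3-FF mice 1 to 6. The light part of Ndufa12 is at or below 13.3 TPM in 7 libraries, and that of Ndufs5 is below 30 TPM only in Erbb3-FF mice 1 and 3.

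Other genes of the pathway were described by lists, whose counts stand beside 3.7% of all tested genes that were lower in ERBB3-dIE mice and 1.66% that were higher. Of 22 electron carrier and coenzyme Q genes 1 was lower in ERBB3-dIE mice and 0 higher (median 0.0048). That gene was Gpd2, the mitochondrial glycerol-3-phosphate dehydrogenase, which feeds electrons to coenzyme Q. It was at 14.6 to 19.7 TPM (median 18.8) in ERBB3-dIE mice and at 26.7 to 39.2 TPM (median 34.7) in Erbb3-FF mice, without overlap (log2 difference −0.92, SE 0.10, limma adjusted p = 0.00161). Of 26 tested assembly factors of complex IV 1 was lower and 0 higher (median 0.072): Sco2, a copper chaperone, at 8.39 to 17.0 TPM (median 12.5) in ERBB3-dIE mice and at 12.4 to 20.8 TPM (median 15.4) in Erbb3-FF mice (−0.45, SE 0.11, limma adjusted p = 0.0397). None of 12 other assembly factors of complex I, 6 of complex III and 5 of complex V passed.

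Lists of the citric acid cycle, mitochondrial structure and glycolysis held 1 or 2 calls each, all lower in ERBB3-dIE mice, and no list is set apart from all genes by such counts. Of 24 genes of the cycle and of pyruvate entry 1 passed: Cs, citrate synthase, at 149 to 203 TPM (median 191) in ERBB3-dIE mice and at 194 to 296 TPM (median 252) in Erbb3-FF mice (−0.47, SE 0.11, limma adjusted p = 0.0285). Of 25 genes of import and structure 2 passed. Slc25a4, the ADP/ATP carrier of heart and muscle, was at 8.26 to 17.5 TPM (median 11.04) in ERBB3-dIE mice and at 16.8 to 51.5 TPM (median 31.7) in Erbb3-FF mice (−1.50, SE 0.18, limma adjusted p = 0.0020). Mfn2, which fuses outer membranes, had a difference of −0.41 (SE 0.11, limma adjusted p = 0.0468). Of 16 glycolysis genes 2 were lower and 0 higher (median −0.22), Pfkp (−0.61) and Ldha (−0.39).

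The 78 mitochondrial ribosome genes, read from nuclear DNA like the respiratory chain subunits, had a median of 0.14 with 69 positive, and 0 passed. None of 19 regulators of mitochondrial biogenesis passed between the genotypes (median −0.030), nor did any of the 13 mitochondrially encoded protein genes (median 0.049). Between the litters, the coactivator gene Ppargc1b was lower in litter B (−0.78, SE 0.18, limma adjusted p = 0.0293), as was mt-Nd5, a complex I subunit of mitochondrial DNA (−0.88, SE 0.22, limma adjusted p = 0.0365). The complex III assembly factor Uqcc3 was higher in litter B (0.57, SE 0.11, limma adjusted p = 0.0185).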

How the data were processed

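RNA from mucosa scraped off the ileum of 12 mice was sequenced from stranded mRNA libraries as single-end reads of 75 bases, per the labels' protocols. CASAVA, Salmon 1.10.0, DESeq2 and the build GRCm39 are named in the submitters' processing notes, and the annotation release is not given in the sources used here. The deposited TPM sum to 1000000 in each library, so a gene's TPM also depends on the other genes, and counts and depth are not kept. The authors' deposited table also holds the mean normalized signal of each gene, log2 fold changes, the standard error as a score, and p-values, per the file headers. Its test design is not given in the sources used here.

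Genes at 1 TPM or more in at least 6 libraries (12605) were fitted with limma 3.58.1 (R 4.3.3) on log2(TPM + 0.5) with genotype and litter as terms, and p-values were adjusted by Benjamini-Hochberg over all of them. Fold changes on this scale understate those of low genes. An interaction term was fitted apart, and ratios were compared by exact permutation. The procedure was tested on simulated data. Mice are taken as separate animals from their labels. Nothing shows how technical steps were shared, so p-values measure the spread between these samples. The alternatives were the pseudocount, level filters, scalings, library weights, covariates for smooth muscle and B cell genes, blocks by replicate number and left-out libraries. The members and lists were chosen with earlier results of these data known. Named genes were those past a threshold, the highest, lowest and smallest-p member of each complex, isoform pairs and genes outside the level bound. Figures were drawn with matplotlib 3.10.9 (Python 3.11.15).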

Additional observations from a re-analysis of the deposited data

Results flagged for a closer look

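In 3 of 54 groups of 6 libraries tested, 1 library lay farther from the others than Dixon's 95% critical value allows, and chance gives about 1 in 20 such groups. Ndufa3, an accessory subunit gene of complex I, was at 515 TPM in ERBB3-dIE mouse 1 and between 370 and 397 TPM in the other 5 ERBB3-dIE mice. Atp5g1, a c-ring gene of complex V, was at 239 TPM in ERBB3-dIE mouse 2 and between 317 and 341 TPM in the other 5. Sdhaf1, an assembly factor gene of complex II, was at 4.24 TPM in Erbb3-FF mouse 1 and between 2.77 and 3.21 TPM in the other 5 Erbb3-FF mice.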

How the results depend on the processing

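Between the genotypes 0 members passed in either direction in limma on the TPM as deposited (10 at an unadjusted p under 0.05). The authors' deposited test gave 3 higher and 2 lower, beside 5.07% and 7.51% of its tested genes. Library weights gave 2 lower, beside 5.84% of all tested genes. Scaling without ribosomal sequence gave 1 lower, beside 6.05%, and scaling without this and mitochondrially encoded genes also 1 lower, beside 6.55%. With single libraries left out there were 0 to 1 higher (Atp5g2, without ERBB3-dIE mouse 2) and 0 to 1 lower (Cox6b2, without Erbb3-FF mouse 5). Of all tested genes, 1.69% were higher in the first of these fits and 4.93% lower in the second. Between the litters 2 were higher and 0 lower. There were 0 higher with the B cell or smooth muscle covariate, median-of-ratios scaling or no level filter. The same held for scaling without mitochondrially encoded genes, alone or together with ribosomal sequence. It also held without the 2 libraries rich in ribosomal sequence or the 2 rich in smooth muscle genes. Over all tested genes, 0% to 3.55% were higher in litter B in these settings, against 7.16% on the TPM as deposited. Calls were thus lost over all genes, not only among the members. Library weights gave 13 higher (14.3%) and 1 lower, beside 14.7% and 7.16% of all tested genes. Leaving out single libraries gave 0 to 12 higher and 0 to 1 lower, beside 0.77% to 15.7% and 0.0317% to 8.54% of all tested genes. The cause was not tested.

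Same-numbered mice of both genotypes deviated together with correlations of 0.074 to 0.36, and of −0.39 to 0.074 once litter was removed, so the numbers do not pair them. With the replicate block and litter 0 members passed between genotypes, beside 0.539% of all tested genes higher and 1.17% lower. Only the mice numbered 3 differ in litter between the genotypes. The litter difference of this fit therefore rests on that pair alone. Ndufa6 was at −0.30 there, which does not show how its litter difference depends on processing. Among genes and ratios with a stated direction, 391 values under alternatives kept direction and side of the threshold, 37 lost the call, 14 gained one and 1 reversed. Cox7a1 ranged from −1.08 to −0.51 and Cox6b2 from −1.44 to −0.78. Depth is unknown, so counting error cannot be given.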
